A study of Homo sapiens with 34 samples.

Results

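The 8437 regions described here were OGG1 regions that lay more than 50 kb from any protein-coding gene and were called in cells treated with H2O2 but in no non-treated (NT) OGG1 library. They were taken from the 132396 regions of the first OGG1 library of control cells treated with H2O2, of which 132025 lay on chromosomes 1 to 22 and X. Of these, 95870 overlapped a region of the second such library by at least 1 bp, and 49469 of those overlapped none of the 4 NT OGG1 lists. The distance limit, measured to the start and end of each protein-coding gene in the RefSeq annotation of GRCh38.p14, left the 8437 distal gained regions, 6.39% of the 132025. Distance and the OGG1 lists of siGl3 H2O2 and NT cells chose these regions, so their values in those lists are given as a description only.

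U2OS cells, which derive from a human osteosarcoma, were synchronized in early S phase by a double thymidine block and collected after a release of 3 h. CUT&RUN, in which an antibody-bound nuclease frees the DNA beside its target protein, was run with antibodies against OGG1, SMARCA1 and Orc6 on 500000 lightly fixed cells per reaction. All cells carried an siRNA for 72 h, either siOrc6, against Orc6, or the control siGl3, and were either exposed to 5 mM H2O2 for 30 min or left non-treated. OGG1 and SMARCA1 lists came from siOrc6 H2O2, siOrc6 NT, siGl3 H2O2 and siGl3 NT cells and Orc6 lists from siGl3 H2O2 and siGl3 NT cells, with 2 libraries in each of these 10 groups. Region lists cannot show how far the knockdown lowered Orc6. The labels do not say that replicates were separate cultures, so the p-values below measure the spread between these samples, which may be technical.

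OGG1 is the DNA glycosylase that recognises 8-oxoguanine, a common oxidation product of guanine, and starts its removal by base excision repair. SMARCA1, also called SNF2L, is an ATPase of the ISWI family, whose complexes slide and space nucleosomes. Orc6 is the smallest member of the origin recognition complex, which loads the replicative helicase onto origins, and it has further roles outside that complex. Sequence far from protein-coding genes holds enhancers, long noncoding RNA (lncRNA) genes, repeats and large stretches of closed chromatin.

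Some distal gained regions contained the start of a noncoding gene. Of 4023 promoters in the RefSeq promoter table that lay more than 50 kb from a protein-coding gene (250 bases before to 50 after the start), 235 lay wholly inside a distal gained region. The 4 printed below, all of lncRNA genes, lay in regions found in 8 or 9 of the 14 lists that the choice did not use. Other promoters in 9 lists, such as those of LOC105371233 and LOC107984132, were not printed. The share of G and C in the 4 ran from 42.7% to 75.7%, against quartiles of 41.5% and 51.3% over the 235. They are therefore examples and do not stand for the base composition of the set. Each is written 5′ to 3′ on the strand of its gene, in GRCh38.p14, with every CG dinucleotide in capitals.

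LOC105378477 (chr10:108466348-108466647, minus strand): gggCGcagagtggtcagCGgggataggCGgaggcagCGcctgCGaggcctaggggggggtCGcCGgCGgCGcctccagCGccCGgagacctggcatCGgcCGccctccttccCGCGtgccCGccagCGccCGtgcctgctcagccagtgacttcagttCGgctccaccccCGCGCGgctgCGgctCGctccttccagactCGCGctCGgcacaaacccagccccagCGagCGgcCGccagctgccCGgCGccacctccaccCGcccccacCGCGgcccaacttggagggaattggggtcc
LOC105375318 (chr7:63925655-63925954, plus strand): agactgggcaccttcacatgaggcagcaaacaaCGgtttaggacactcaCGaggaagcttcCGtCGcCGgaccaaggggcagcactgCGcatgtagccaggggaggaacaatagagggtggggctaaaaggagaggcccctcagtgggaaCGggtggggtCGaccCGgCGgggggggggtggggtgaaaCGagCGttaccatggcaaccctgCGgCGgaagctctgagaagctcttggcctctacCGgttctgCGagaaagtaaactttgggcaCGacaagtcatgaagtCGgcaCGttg
LINC01572 (chr16:72664921-72665220, minus strand): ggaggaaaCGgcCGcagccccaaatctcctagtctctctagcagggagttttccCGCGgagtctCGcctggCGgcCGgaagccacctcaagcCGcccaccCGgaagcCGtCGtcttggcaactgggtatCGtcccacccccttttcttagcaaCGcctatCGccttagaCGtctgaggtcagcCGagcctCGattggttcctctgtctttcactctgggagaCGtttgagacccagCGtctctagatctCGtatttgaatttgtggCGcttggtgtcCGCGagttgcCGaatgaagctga
LINC02817 (chr1:221336247-221336546, minus strand): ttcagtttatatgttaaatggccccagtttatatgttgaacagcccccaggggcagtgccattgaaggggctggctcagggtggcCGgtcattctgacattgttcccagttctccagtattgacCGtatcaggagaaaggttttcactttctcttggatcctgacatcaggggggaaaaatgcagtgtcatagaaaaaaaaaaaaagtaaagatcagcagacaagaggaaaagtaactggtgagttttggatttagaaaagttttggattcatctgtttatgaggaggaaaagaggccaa

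The LOC105378477 promoter was 75.7% G or C with 35 CG dinucleotides, and the region over it was in all 4 SMARCA1 H2O2 lists, in no SMARCA1 NT list and in 2 of 4 Orc6 lists. The LOC105375318 promoter (60.3% G or C, 19 CG) lay in a region found in 3 of 4 SMARCA1 H2O2, 1 of 4 SMARCA1 NT and 3 of 4 Orc6 lists. The LINC01572 promoter (58.3%, 24 CG), which overlaps the start of the oppositely oriented ZFHX3-AS1, and the LINC02817 promoter (42.7%, 2 CG) each lay in a region found in all 4 SMARCA1 H2O2, no SMARCA1 NT and 3 of 4 Orc6 lists. All 4 regions were also in both OGG1 lists of siOrc6 H2O2 cells.

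Over the 235 promoters the median share of G and C was 46.7%, against 43.7% over all 4023 distal promoters and 58.7% over all 34961 promoters of the table. The run GGGG, on either strand, was in 82.1% of the 235, 73.9% of the distal promoters and 89.7% of all promoters. TATAAA on either strand was in 19.1%, 22.6% and 11.5% of the same 3 sets. In each of these 3 measures the promoters inside distal gained regions lay between the other 2 sets. So did the 564 distal promoters inside distal OGG1 regions that were also in an NT OGG1 list, at 49%, 86.0% and 12.1%. The placing was thus not particular to gained regions. Of the 235, 29 were in regions found in none of the 14 lists that the choice did not use (8 SMARCA1, 4 Orc6 and 2 OGG1 siOrc6 H2O2), and 8 were in regions found in 9 of them.

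Distal gained regions, which covered 2.64% of the bases more than 50 kb from a protein-coding gene, also contained 7 of the 240 annotated distal microRNA hairpins. Enrichment was not tested. The mature microRNAs of the 3 hairpins whose regions were shared with both SMARCA1 and Orc6 lists are printed from RefSeq, 5′ to 3′, with the seed (bases 2 to 8) in capitals. No 2 of these 4 seeds are alike.

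hsa-miR-29a-3p: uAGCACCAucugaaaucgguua
hsa-miR-29a-5p: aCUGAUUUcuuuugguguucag
hsa-miR-557: gUUUGCACgggugggccuugucu
hsa-miR-4289: gCAUUGUGcagggcuauca

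The miR-29a hairpin (chr7:130876747-130876810, minus strand), whose 3p product is known to repress collagen and other matrix genes, lay in a region found in 1 SMARCA1 H2O2 list, 1 Orc6 list and 1 OGG1 siOrc6 H2O2 list. The regions over miR-557 (chr1:168375524-168375621, plus strand) and miR-4289 (chr9:88745836-88745905, minus strand) were each found in 6 of the 14 lists. The remaining 4 hairpins, miR-6077, miR-4435-1, miR-516b-1 and miR-1587, were in regions found in 0 to 3 lists, none of them a SMARCA1 list.

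Distal gained regions were short and of middling signal. Their median width was 2915 bp (quartiles 2190 and 4355 bp), against 3220 bp for the 41032 gained regions within 50 kb of a gene and 5499 bp for the 6447 distal regions that were also in an NT OGG1 list, called kept here. Signal is the authors' own value, whose normalization the labels leave out, so it serves only to rank regions within a list. By total signal the median distal gained region stood at the 42.3rd percentile of its list, the near-gene gained region at the 48.2nd and the kept region at the 73.0th. Of the distal regions in both H2O2 libraries, 56.7% were gained, against 50.7% of the near-gene regions. The lists themselves differed in length: the OGG1 siGl3 H2O2 lists held 132025 and 110679 regions, and the 4 NT OGG1 lists 17813 to 33435. With every OGG1 list held to its 17813 regions of highest signal, 98 distal gained regions were left, and the part of list length in the choice of the 8437 was not tested further.

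The median distance to the nearest protein-coding gene was 116141 bp, with 57.8% of regions more than 100 kb, 488 regions more than 500 kb and 96 regions more than 1 Mb away. The 3 regions just inside the limit lay 50016, 50021 and 50026 bp from a gene, and the 3 just outside it 49989, 49988 and 49982 bp. All 8437 covered 30.8 Mb, 2.64% of the 1167 Mb that lie more than 50 kb from a protein-coding gene.

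The widest and strongest distal gained region spanned 35394 bp at chr12:3941976-3977369, over the lncRNA gene LOC105369608, 68576 bp from PARP11 and 296392 bp from CCND2, the gene of the G1 cyclin D2. It was in all 4 SMARCA1 H2O2 lists, no SMARCA1 NT list, 1 Orc6 list and both OGG1 siOrc6 H2O2 lists. The next strongest lay over C5orf67 (chr5:56584048-56608319), 207229 bp from MAP3K1, a kinase of the JNK pathway, and was in 1 SMARCA1 H2O2 and 2 Orc6 lists. A 25063 bp region over LINC00877 (chr3:72095808-72120870), between PROK2 and RYBP, was in 3 SMARCA1 H2O2 lists and 1 Orc6 list. By contrast, a 20453 bp region between SPRY4 and FGF1 (chr5:142479718-142500170) was in no SMARCA1 and no Orc6 list. High OGG1 signal thus went with anything between none and all of the SMARCA1 H2O2 lists. All 10 regions of highest signal were in both OGG1 siOrc6 H2O2 lists, and none was in a SMARCA1 NT list.

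The regions shared most widely were others. The region between RIPOR2 and CARMIL1 (chr6:25172421-25178390) and the region over the mitochondrial pseudogene MTCO1P40 (chr17:53105733-53106857) were each in 13 of the 14 lists, including all 4 Orc6 and 3 of 4 SMARCA1 NT lists. A region between CD83 and JARID2 (chr6:15065894-15067528) was in 12. JARID2 is a subunit of the Polycomb complex PRC2. Regions that were in 11 included chr6:133745430-133748168 over TARID, an antisense lncRNA, between EYA4 and TCF21, and chr5:44664829-44666730 between FGF10 and MRPS30. Reads over MTCO1P40 cannot be told apart with certainty from mitochondrial DNA. The same holds for regions beside centromeres, such as chr10:39986030-39987035 (11 lists), and for the 5 regions farthest from a gene, which lie on the short arm of chromosome 22 and 4190005 to 4839280 bp from OR11H1: their placement among near-identical copies is uncertain. Most distal gained regions were in few lists: 3862 (45.8%) were in none of the 12 SMARCA1 and Orc6 lists, 2055 in 1 and 1126 in 2.

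SMARCA1 covered distal gained regions mostly in cells treated with H2O2. In siOrc6 cells, SMARCA1 overlapped 4.09% and 12.7% of the regions in the H2O2 libraries, against 0.936% and 0.249% in the NT libraries. In siGl3 cells it overlapped 15.1% and 9.77% in the H2O2 libraries, against 1.09% and 1.04% in the NT libraries. In both siRNA groups every H2O2 library lay above every NT library. SMARCA1 H2O2 averaged 10.4% and SMARCA1 NT 0.830% over 4 libraries each, a difference of 9.59 points. The difference had p = 0.0556 in an exact two-sided permutation test within siRNA groups, the smallest p this design allows, and was positive in 4 of 4 same-numbered pairs. In all, 2579 distal gained regions (30.6%) were in at least 1 of 4 SMARCA1 H2O2 lists and 2.56% in at least 1 of 4 SMARCA1 NT lists. Here too the list lengths moved with treatment, at 35381 to 69927 regions in the H2O2 libraries and 6992 to 14791 in the NT libraries. With all lists held to their 6992 strongest regions the difference was -0.28 points (p = 0.222, exact), and at equal covered bases, a setting added after the data were seen, 0.18 points (p = 0.667, exact). These shortened lists hold only strong regions, and under the same limit of 6992 the OGG1 siOrc6 H2O2 libraries overlapped 1.09% of distal gained regions on average. The part of list length in the SMARCA1 difference was not tested further. All regions and near-gene gained regions had a gap between H2O2 and NT in the same direction. In siOrc6 cells SMARCA1 overlapped 16.7% and 26.3% of all 132025 regions with H2O2, against 11.1% and 7.68% in NT cells, and 4.84% and 12.9% of near-gene gained regions, against 0.668% and 0.219%. In siGl3 cells it overlapped 24.7% and 19.3% of all regions with H2O2, against 4.47% and 6.55% in NT cells, and 13.9% and 7.99% of near-gene gained regions, against 0.288% and 0.319%.

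**Figure D1:**
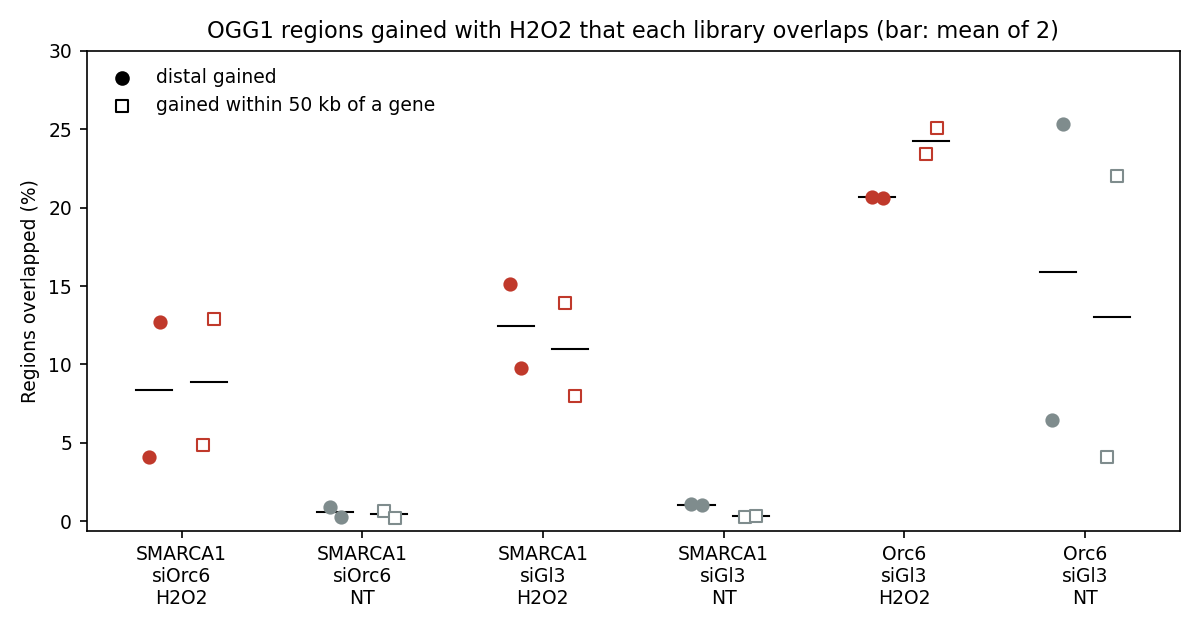
Share of the 8437 distal gained OGG1 regions (filled circles) and of the 41032 near-gene gained OGG1 regions (open squares) that each library overlapped by at least 1 bp, in percent; each point is 1 library, red for H2O2 and grey for NT, and bars are means of 2. SMARCA1 libraries reach 4.09% to 15.1% of the distal regions with H2O2 and at most 1.09% in NT cells, while the Orc6 NT libraries, at 6.45% and 25.4%, lie on both sides of the Orc6 H2O2 libraries.

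Orc6 was found on distal gained regions in NT cells as well as with H2O2. The Orc6 H2O2 libraries overlapped 20.7% and 20.6% of the regions, and the Orc6 NT libraries 6.45% and 25.4%. The NT libraries thus lay on both sides of the H2O2 libraries, and the mean difference of 4.75 points had p = 1 (exact permutation test, smallest possible p 0.333). Their lists held 23375 and 63692 regions, and without the shorter NT library the difference was -4.70 points. Over SMARCA1 and Orc6 together the difference between H2O2 and NT was 7.98 points (p = 0.0648, exact permutation within antibody and siRNA, 0.113 adjusted over the 7 results tested; 5 of 6 pairs positive). With lists held to the shortest list this difference was 0.12 points (p = 0.963, exact), and at equal covered bases 0.09 points (p = 0.667, exact). Leaving out single libraries, which was not planned beforehand, moved it both ways. It was 4.83 points (p = 0.130, exact) without the first Orc6 NT library and 11.1 points (p = 0.00926, exact) without the second. Without the first SMARCA1 siOrc6 H2O2 library it was 9.41 points (p = 0.0278, exact). In total, 3625 distal gained regions (43.0%) were in at least 1 of 4 Orc6 lists and 194 in all 4. Orc6 overlapped 34.6% of all 132025 regions in each H2O2 library and 15.2% and 34.9% in the NT libraries, so distal gained regions lay below all regions in each of the 4.

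With Orc6 silenced, the SMARCA1 overlap did not differ beyond the spread between libraries, in a design whose smallest p is 0.0556. SMARCA1 averaged 4.49% of distal gained regions over the 4 siOrc6 libraries and 6.76% over the 4 siGl3 libraries, a difference of -2.27 points (p = 0.389, exact permutation within treatment; 1 of 4 pairs positive). Among H2O2 libraries the siOrc6 and siGl3 values overlapped, whereas among NT libraries both siOrc6 values lay below both siGl3 values. Without the libraries of replicate 1 the difference was 1.07 points. It reached that smallest p (0.0556, exact) at -7.42 points without the second OGG1 siOrc6 NT list in the choice of regions and at -4.42 points without the second SMARCA1 siOrc6 H2O2 library. The same p came with lists held to the shortest list (-0.41 points) or to equal covered bases (-0.85 points). The 4 SMARCA1 lists of siOrc6 cells are marked as submitted again and those of siGl3 cells are not. An effect of the siRNA therefore cannot be told apart from anything that goes with the mark.

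To scale for how much each list covers, the percentage of distal gained bases covered by a library was divided by the percentage it covered of all distal bases. This scaling does not hold list length equal, and values for shortened lists are given below. The ratio was 2.14 and 3.21 in SMARCA1 siOrc6 H2O2 libraries against 0.413 and 0.182 in siOrc6 NT libraries. In siGl3 cells it was 2.89 and 2.95 for SMARCA1 H2O2 against 0.792 and 0.767 for NT, and for Orc6 3.35 and 3.24 for H2O2 against 2.25 and 3.22 for NT. With H2O2, all 6 libraries thus covered distal gained bases more than distal bases in general, and all 4 SMARCA1 NT libraries covered them less. For regions more than 100 kb from a gene the direction turned in the SMARCA1 siGl3 NT libraries, whose log2 ratios were 0.32 and 0.52, and not in the siOrc6 NT libraries (-0.61 and -2.12). The difference between H2O2 and NT on the log2 scale was 1.82 (p = 0.00926, exact permutation and the smallest possible, 0.0324 adjusted over 7 results; 6 of 6 pairs positive).

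That difference depended on which NT OGG1 lists chose the regions. With the second OGG1 siOrc6 NT list, the longest of the 4, left out of the choice, 11966 regions were chosen and the difference was 0.03 (p = 0.880, exact). With no NT list used, all 14884 distal regions of both H2O2 libraries were included and the difference was -0.14 (p = 0.157, exact), with log2 ratios of 2.81 to 3.23 in SMARCA1 H2O2 libraries and 3.20 to 3.31 in SMARCA1 NT libraries. The difference also changed when lists were shortened. With lists held to the shortest list it was 0.11 (p = 0.806, exact), and at equal covered bases 1.05 (p = 0.0463, exact). SMARCA1 in NT cells was therefore low over the 8437 regions, chosen for the absence of NT OGG1, and high over the distal OGG1 regions as a whole.

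**Figure D2:**
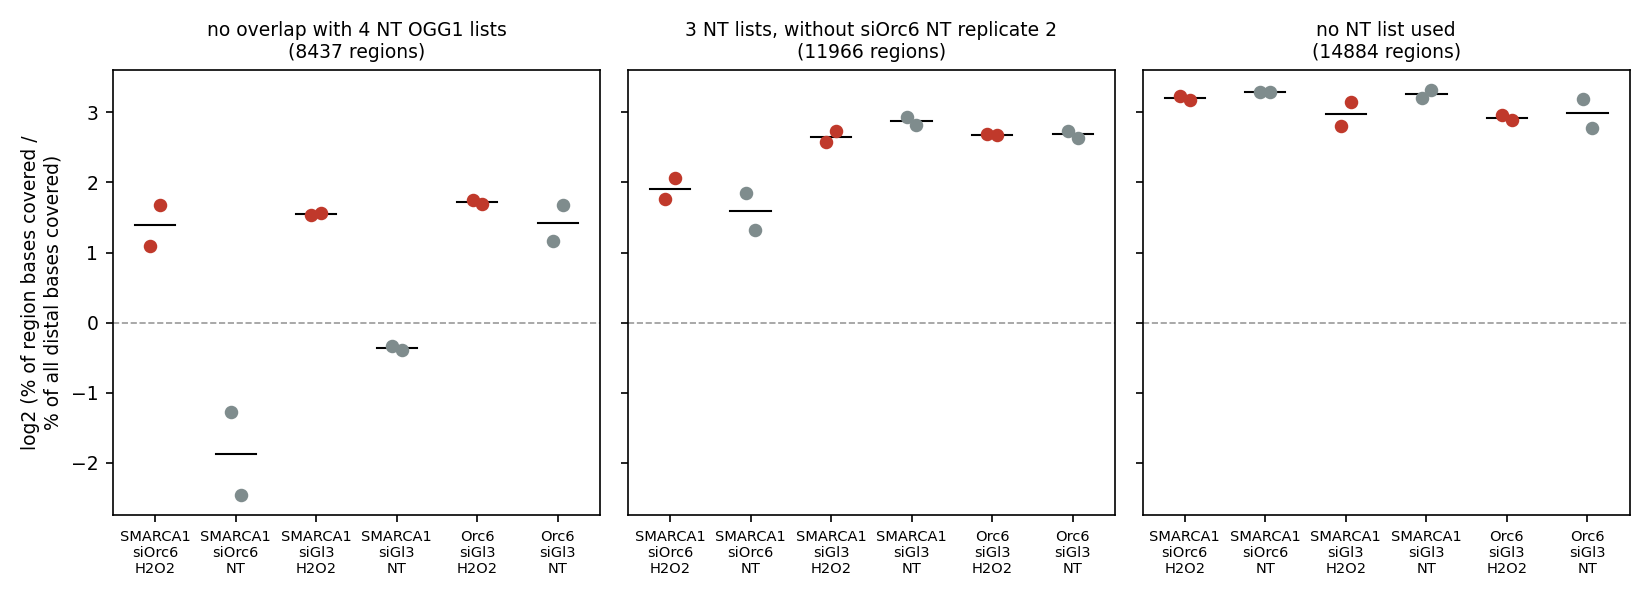
Log2 ratio of the percentage of region bases to the percentage of all distal bases covered by each SMARCA1 and Orc6 library, for distal OGG1 regions chosen with all 4, with 3 and with no NT OGG1 lists; each point is 1 library, red for H2O2 and grey for NT, bars are means of 2 and the dashed line marks equal coverage. The gap between H2O2 and NT of 1.82 in the left panel is 0.03 in the middle panel and -0.14 in the right panel.

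Coverage was also read at each distance from the centre of the regions. In SMARCA1 siOrc6 libraries the centre base was covered in 2.24% and 6.12% of regions with H2O2, against 1.72% and 4.08% at 20 kb to either side. In SMARCA1 siGl3 H2O2 libraries it was covered in 5.68% and 4.39%, against 3.53% and 2.86% at 20 kb. The SMARCA1 H2O2 libraries thus had a narrow maximum at the centre of OGG1 regions, above the level at 20 kb. In the SMARCA1 NT libraries the surroundings of the centre lay low, and centre coverage was 0.100 and 0.167 times that at 20 kb in siOrc6 cells and 0.412 and 0.424 times in siGl3 cells. Set against 3 kb to either side, the centre was 2.73 to 3.71 times as high in SMARCA1 siOrc6 H2O2 libraries and 0.788 and 0.897 times in siOrc6 NT libraries. In siGl3 cells the same ratio was 2.05 and 2.94 with H2O2 and 1.47 and 2.27 in NT cells, so a narrow maximum stood within the dip of the siGl3 NT libraries too. Orc6 coverage at the centre was 1.20 and 1.04 times that at 20 kb with H2O2 and 0.884 and 1.44 times in NT cells. Against 3 kb it was 1.55 and 1.20 times with H2O2 and 1.54 and 2.02 times in NT cells. In the OGG1 siOrc6 H2O2 libraries it was 1.56 and 1.70 times, so a maximum at the centre was not particular to SMARCA1. The regions were chosen for the absence of NT OGG1, and the part of that choice in the dip of the NT libraries was not tested.

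**Figure D3:**
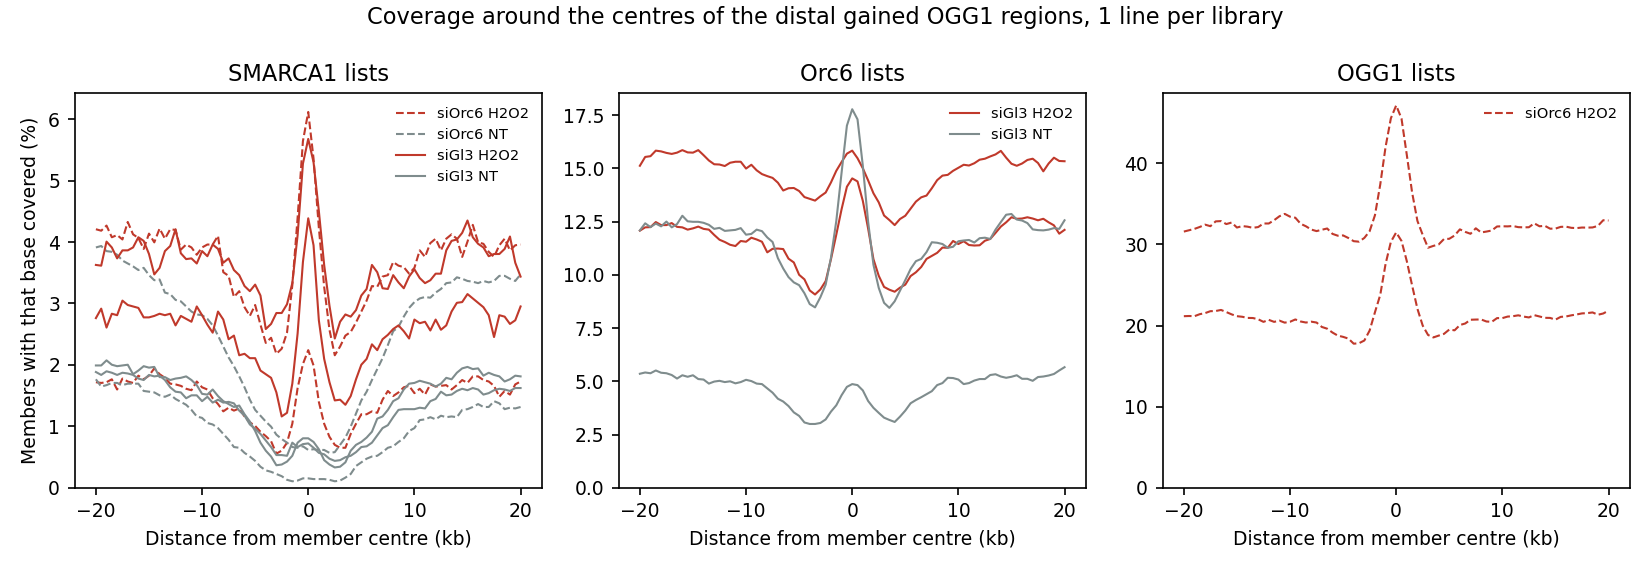
Percentage of distal gained OGG1 regions in which the base at a given distance (kb) from the region's centre was covered, 1 line per library, red for H2O2 and grey for NT, dashed for siOrc6 and solid for siGl3, in panels for SMARCA1, Orc6 and the 2 OGG1 siOrc6 H2O2 libraries. The 4 SMARCA1 H2O2 lines have a peak at the centre, 1.30 to 1.61 times the value at 20 kb, and the 4 SMARCA1 NT lines lie lowest within a few kb of the centre, with a small maximum at the centre itself in siGl3 cells.

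OGG1 in siOrc6 cells treated with H2O2, which played no part in the choice, overlapped 65.6% and 43.1% of the distal gained regions in its 2 libraries (54.3% ± 15.9, SD, n = 2). The same libraries overlapped 71.1% and 50.4% of the near-gene gained regions and 93.2% and 80.1% of the kept regions. Of the distal gained regions, 2810 (33.3%) were in both libraries, 3549 (42.1%) in 1 and 2078 (24.6%) in neither. Regions in both had a median width of 3728 bp and those in neither one of 2522 bp. No test was made against OGG1 in siGl3 cells, where presence in both libraries was required. Held to their 6992 strongest regions, the 2 libraries overlapped 1.09% on average.

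The share of distal gained regions found again by OGG1 in siOrc6 cells went up with the number of Orc6 lists over them. Both OGG1 siOrc6 H2O2 lists held 63.9% of the 194 regions in all 4 Orc6 lists, 43.9% of the 3431 in 1 to 3 lists and 24.5% of the 4812 in none. SMARCA1 followed the same order: 85.6%, 43.1% and 19.4% of these 3 classes were in at least 1 SMARCA1 H2O2 list. Wider regions are met by more lists, and the classes had median widths of 3862, 3260 and 2716 bp. The order held within each of 4 width classes, from 60.0%, 31.7% and 17.6% in the narrowest to 70.2%, 59.5% and 45.0% in the widest. These shares are across regions of the same libraries and are given as a description.

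**Figure D4:**
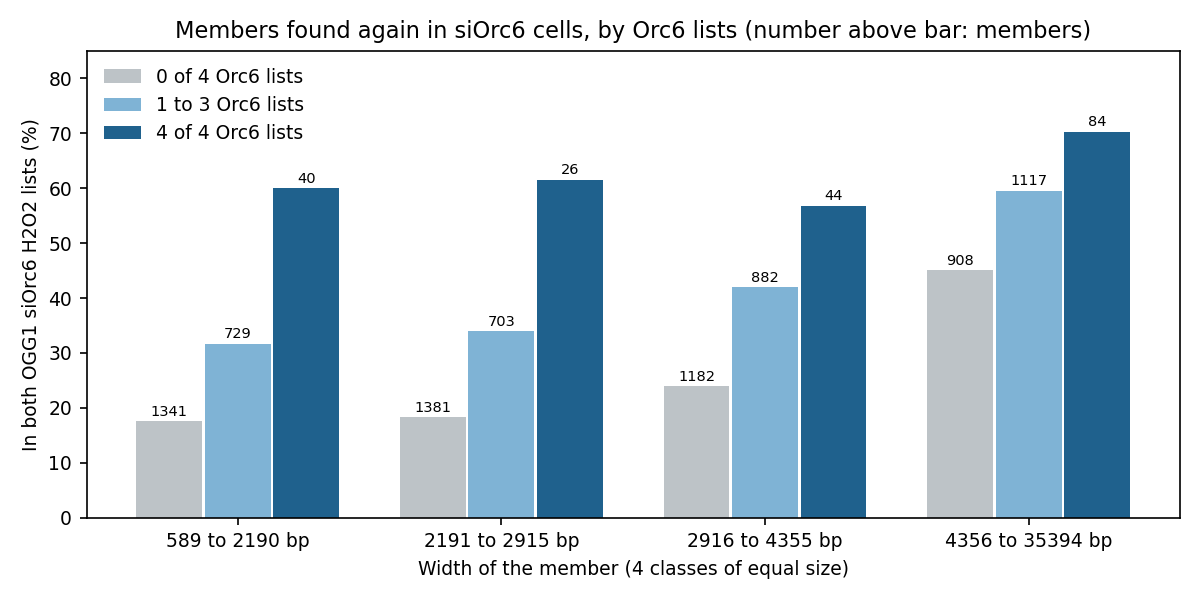
Percentage of distal gained regions that were in both OGG1 siOrc6 H2O2 lists, in 4 classes of region width (bp) and by the number of Orc6 lists that overlapped the region; the number above each bar is the number of regions. In each width class the bar for 4 of 4 Orc6 lists is the highest and the bar for 0 lists the lowest.

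Few regions were separated fully by treatment. For each of the 132025 regions, presence in the 8 SMARCA1 lists was compared between H2O2 and NT. Of the distal gained regions, 29 (0.344%) were in all 4 H2O2 and no NT list, against 1.06% of all regions, and 1 was in all 4 NT and no H2O2 list, against 0.00985%. With Fisher's exact test, whose p for such a pattern is 0.0286, no region passed Benjamini-Hochberg adjustment over the 4252 regions in exactly 4 of the 8 lists, which alone could reach that p (adjusted p = 0.0860), and 30 distal gained regions passed unadjusted. The 29 became 75 without the first SMARCA1 siOrc6 H2O2 library, 51 without the first SMARCA1 siGl3 H2O2 library and 64 without the second. Over all 132025 regions the count went from 1399 to 2817, 2394 and 2410 in the same settings. With a library left out the pattern asks for fewer lists, so such a count cannot fall. In siGl3 cells alone, 275 regions (3.26%) were in both SMARCA1 H2O2 lists and no NT list, against 7% of all regions, and in siOrc6 cells 186 (2.2%) against 5.61%. In both siRNA groups the share among distal gained regions was below that of the whole list, as was the share among near-gene gained regions (2.65% in siGl3 and 3.04% in siOrc6 cells). The reverse pattern, both NT lists and no H2O2 list, was seen in 7 regions in siGl3 cells (0.083%, against 0.0992% of all regions) and in 6 in siOrc6 cells (0.0711%, against 0.163%).

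Of these 29, 27 were in both OGG1 siOrc6 H2O2 lists, 27 in at least 1 Orc6 list, and 16 lay on another annotated gene. The following were picked from the 29 after their values were seen. The region chr6:27590093-27596030, between ZNF184 and the histone gene H2BC13, covers the tRNA genes TRK-TTT4-1 and TRX-CAT1-6 and was also in 3 Orc6 lists. Another, chr6:156686439-156689079, lies 86946 bp from ARID1B, a subunit of the SWI/SNF remodellers. Several of the 29, on chromosomes 10, 16, 20 and 22, lie beside a centromere, where placement is uncertain. The 1 region with the opposite pattern, chr4:169895550-169897069, lies between HPF1, a partner of PARP1 in ADP-ribosylation, and MFAP3L.

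For the siRNA, 1 distal gained region (chr7:131635760-131639854, between PODXL and PLXNA4) was in all 4 SMARCA1 siOrc6 and no siGl3 list, against 0.52% of all regions. There were 7 with the opposite pattern, against 0.235% of all regions, and none passed adjustment over the same 4252 regions (Fisher's exact test, adjusted p = 0.122; 8 unadjusted). The 7 became 17 without the second SMARCA1 siGl3 NT library and 14 without the second SMARCA1 siGl3 H2O2 library. Over all regions the count went from 310 to 585 and 420 in the same settings, which again ask for fewer lists. All 7 were in at least 3 Orc6 lists, among them chr4:74658867-74666701 between AREG and BTC, both ligands of the EGF receptor, and chr14:53367132-53369120, between DDHD1 and BMP4, a bone morphogenetic protein. The pattern asks for presence in SMARCA1 NT lists, which itself goes with Orc6. At least 1 SMARCA1 NT list held 23.7% of the distal gained regions in all 4 Orc6 lists and 0.603% of those in none. The 7 were not compared with other regions in SMARCA1 NT lists. Within SMARCA1 H2O2 libraries, 97 distal gained regions (1.15%) were in both siOrc6 and no siGl3 list, against 3.99% of all regions, and 204 (2.42%) had the opposite pattern, against 3.09%. Within SMARCA1 NT libraries the same counts were 8 (0.0948%, against 2.97%) and 23 (0.273%, against 0.738%). In both treatments the siGl3 pattern was thus the more frequent among distal gained regions and the siOrc6 pattern among all regions. Distal kept regions leaned as distal gained regions did, with 9.15% siGl3 and 4.37% siOrc6 with H2O2, and 4.27% and 3.07% in NT cells. Near-gene gained regions leaned the other way, at 1.81% and 1.92% with H2O2, and 0.0414% and 0.0877% in NT cells. For Orc6, 217 distal gained regions (2.57%) were in both H2O2 and no NT list, against 3.61% of all regions, and 51 (0.604%) in both NT and no H2O2 list, against 0.42%.

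Whether distal and near-gene gained regions differed in SMARCA1 and Orc6 coverage depended on the setting. Coverage was compared at the centre base, a single base of each region whatever its width. The share of regions with a covered centre base was on average 0.79 points higher in distal gained than in near-gene gained regions of the same library (9 of 12 libraries; p = 0.140, exact sign-flip permutation over 12 libraries). For SMARCA1 alone it was 0.60 points higher (7 of 8 libraries, p = 0.0234, exact, not adjusted), and for Orc6 1.16 points (2 of 4 libraries, p = 0.625, exact). Without the second Orc6 H2O2 library the difference over both was 1.07 points (p = 0.0107, exact). It was 2.90 points (p = 0.000488, exact) without the second OGG1 siOrc6 NT list in the choice, 1.64 points (p = 0.0127, exact) for regions beyond 100 kb and 1.13 points (p = 0.0483, exact) for regions no wider than the median. These 4 settings were the only ones to pass 0.05, and 16 others left the result as it was. With lists held to the shortest list the direction was reversed, at -0.14 points (p = 0.779, exact). With regions taken from the second H2O2 list the difference was 0.61 points (p = 0.321, exact), and with no NT list used 0.65 points (p = 0.511, exact).

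SMARCA1 and Orc6 lists covered kept regions more often. Centre bases were covered 16.9 points less often in distal gained than in distal kept regions, lower in 12 of 12 libraries (p = 0.000488, exact sign-flip permutation and the smallest possible, 0.00342 adjusted over 7 results). The difference was -11.4 points for SMARCA1 (8 of 8 libraries lower, p = 0.00781, exact) and -27.9 points for Orc6 (4 of 4 lower). In SMARCA1 siGl3 H2O2 libraries, for example, 5.68% and 4.39% of distal gained centres were covered, against 16.4% and 15.3% of kept centres. The direction and the call held under all 20 alternatives tried, but the size did not. It was -7.57 points with lists held to the shortest list, -3.92 with equal covered bases and -10.4 without the second OGG1 siOrc6 NT list in the choice. Among regions no wider than the median distal gained region it was -11.9 points. Kept regions were also wider and of higher OGG1 signal, as given above. Within lists, regions on distal gained OGG1 regions ranked low: their median percentile of total signal was 28.0 to 41.9 in 11 of the 12 SMARCA1 and Orc6 libraries. It was 60.4 in the second SMARCA1 siOrc6 NT library, where 19 regions lay on them. Regions on near-gene gained OGG1 regions ranked low too, at 21.9 to 47.8 over the 12 libraries, and those on kept regions stood at 38.3 to 64.4.

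Distal gained regions were spread over all chromosomes but unevenly. Per Mb of bases more than 50 kb from a protein-coding gene there were 7.23 in all, 13.5 on chromosome 10, 12.9 on 19, 10.4 on 2, 3.84 on 4, 2.58 on 13 and 1.17 on X. These chromosomes also differed in OGG1 coverage as a whole: the first OGG1 siGl3 H2O2 library covered 18.0% of the distal bases of chromosome 10 and 1.26% of those of X. Regions lay close together, with a median of 5645 bp to the nearest other one and 60.1% within 10 kb.

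**Figure D5:**
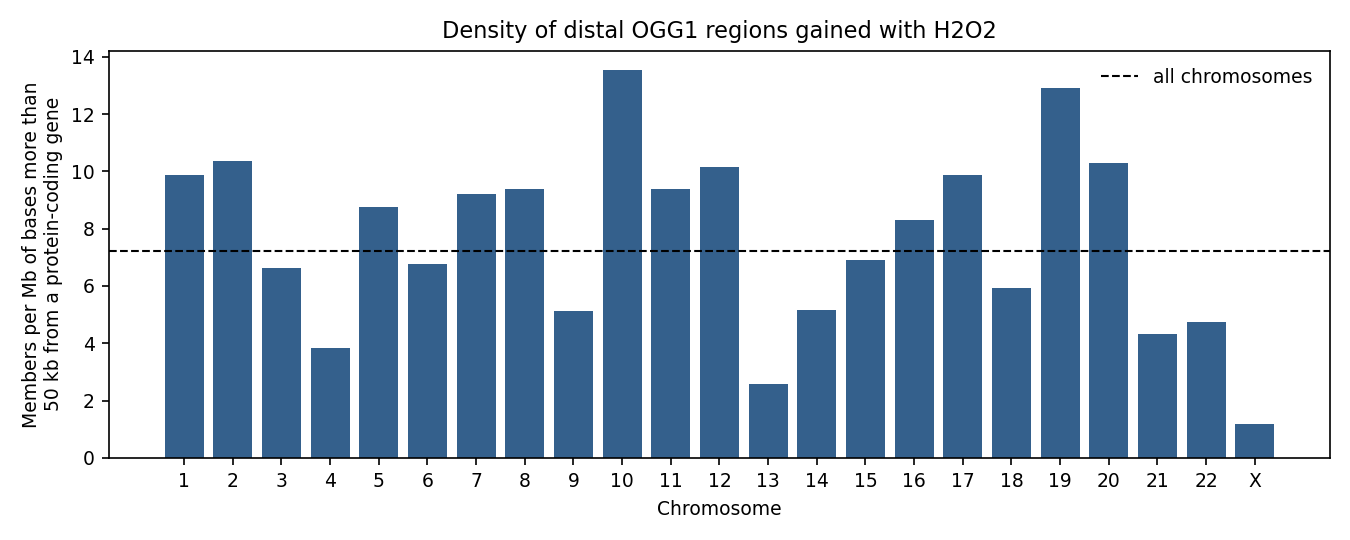
Number of distal gained OGG1 regions per Mb of bases more than 50 kb from a protein-coding gene, by chromosome; the dashed line is the value over all chromosomes, 7.23. Chromosomes 10 and 19 are highest, at 13.5 and 12.9, and X is lowest, at 1.17.

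Of 2913 intervals of over 100 kb between neighbouring protein-coding genes, 1534 (52.7%) held a distal gained region, and 230 with at least 10 held 50.7% of them. The intervals with most were SPDYE21 to AUTS2 on chromosome 7 and TBX3 to MED13L on chromosome 12, with 71 each. AUTS2 is a neurodevelopmental gene linked to Polycomb complexes, TBX3 a T-box transcription factor and MED13L a Mediator subunit. RPIA to LOC124905368 on chromosome 2, an interval that includes immunoglobulin kappa segments, followed with 68. ZNF254 to UQCRFS1, across the centromere of chromosome 19, held 56, and PTPRU to MATN1 held 55. RPS24 to ZMIZ1 held 54, CADM1 to BUD13 held 53, TNP1 to TNS1 held 44, and TBC1D22A to TAFA5 and GADD45G to DIRAS2 held 36 each.

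These intervals differed in what else was there. At least 1 Orc6 list held 35 of the 56 regions between ZNF254 and UQCRFS1 and 34 of the 68 between RPIA and LOC124905368, but 3 of the 55 between PTPRU and MATN1 and 6 of the 36 between TBC1D22A and TAFA5. At least 1 SMARCA1 H2O2 list held 23 of the 54 between RPS24 and ZMIZ1 and 15 of the 71 between TBX3 and MED13L. The OGG1 siOrc6 H2O2 lists both held 29 of the 56 between ZNF254 and UQCRFS1 and 6 of the 36 between TBC1D22A and TAFA5.

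Lists of genes that flank large intergenic intervals were set beside all genes. Of 51 developmental transcription factors, 41 bounded an interval with a distal gained region (80.4%), as did 25 of 40 neural adhesion and synapse genes, 11 of 20 bone and mesenchyme genes and 13.6% of all 19970 protein-coding genes. Among genes that bound an interval over 100 kb the share was 85.4% of 48 transcription factors, 65.8% of 38 neural genes, 78.6% of 14 bone genes and 57.4% of all 4724. Transcription factors bounding at least 10 regions numbered 11, with 71 beside TBX3, 28 beside SOX9, the regulator of cartilage, 25 beside IRX1, 21 beside SOX2 and 20 beside TBX5. In the bone list CDH11, a mesenchymal cadherin also called osteoblast cadherin, bounded 21 and BMP4 15, and in the neural list CNTNAP5 bounded 19 and NRXN3 11. The lists were chosen with earlier results of these data known, and no test was made.

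Other annotated genes lay under 35.96% of distal gained regions and 40.9% of kept regions. The centre base was in an lncRNA gene in 27.5% of distal gained regions and 28.5% of kept regions, against 21.5% of all distal bases. It was in a pseudogene in 1.58% and 0.977% of them, against 0.809%. At the centre base, distal gained and kept regions thus differed by 1 point in lncRNA genes. By overlap with any part of the region, lncRNA genes met 30.4% of distal gained and 35.3% of the wider kept regions.

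The authors also deposited SMARCA1 windows as positions in 4 sets, up and ns for H2O2 and for NT, and the labels do not state the samples behind them. In the authors' deposited table named H2O2 up, windows met 45 distal gained regions (0.533%), against 7.66% of all 132025 regions, and H2O2 ns windows met 345 (4.09%), against 13.3%. In the authors' deposited table named NT up they met 0, against 4.70% of all regions, and NT ns windows met 28 (0.332%), against 3.36%. In each of these 4 sets the share of distal gained regions was below that of all regions. The same held for near-gene gained regions, at 1.40% and 3.50% for H2O2 up and ns and 0.0634% and 0.0682% for NT up and ns. Kept regions lay below all regions in the up sets (4.36% for H2O2, 2.99% for NT) and above them in the ns sets (32.7% and 14.4%).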

How the data were processed

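CUT&RUN libraries of U2OS cells for OGG1, SMARCA1 and Orc6 were read as 20 lists of called regions, 1 per library, with groups and replicate numbers from the sample titles. Of 34 samples, 14 were not analysed here. Per the submitters' processing notes, the build was hg38 and the tools were SEACR 1.1, Bowtie2, DiffBind, deepTools, SAMtools, DESeq2 and bedtools, with no role stated for any. In each list the authors deposited a total signal and a maximum signal per region; how these were normalized, and against which control, is not stated, and read counts and depth are unknown. Signal was used only to rank regions within a list. The authors' deposited window tables give positions only.

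Regions on chromosomes 1 to 22 and X were kept. Gene positions, promoters and microRNAs came from RefSeq tables of GRCh38.p14, and no genome sequence was used. Overlap means at least 1 bp. Distal bases are those more than 50 kb from any protein-coding gene, within the span of the lists on each chromosome (1167 of 3029 Mb). Library values were tested by exact permutation of the label within strata, differences within libraries by exact sign flips, and 7 results were adjusted together (Benjamini-Hochberg). Single regions were tested by Fisher's exact test for all 132025 regions, adjusted over the 4252 present in exactly 4 of 8 lists, which alone could pass, and the test was checked on simulated data. A batch in the labels equals the replicate number, so same-numbered libraries were treated as pairs in an alternative with a replicate block. No 2 libraries of a group held identical lists: replicates shared 18.6% to 57.8% of the bases of their union. Named regions were the 10 of highest signal, the 10 in most lists, the 5 farthest and 5 widest, the 3 on each side of the limit and the genes beside them, of which not all are printed. The regions, lists, tests and 66 alternatives were chosen with earlier results of these data known, and 4 alternatives were added after the files were seen. The scripts ran under Python 3.11.15 with pandas 2.3.3, scipy 1.17.1, matplotlib 3.10.9 and numpy 2.4.6.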

Additional observations from a re-analysis of the deposited data

Results flagged for a closer look

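Between distal gained and near-gene gained regions of the same library, the share of covered centre bases differed in opposite directions by group. The distal minus near-gene difference was -0.24 and -2.33 points in the Orc6 H2O2 libraries and 2.37 and 4.86 points in the Orc6 NT libraries, a difference of -4.90 points between H2O2 and NT means. In SMARCA1 siGl3 H2O2 libraries the difference was 1.51 and 1.44 points, and the Orc6 H2O2 mean minus theirs was -2.76 points. Every library of one group lay on the opposite side of 0 from every library of the other, with 2 libraries a group, and neither difference was tested. The Orc6 H2O2 lists had median widths of 4670 and 7174 bp and the Orc6 NT lists 5054 and 3491 bp; the part of width in these differences was not tested.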

How the results depend on the processing

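The number of distal gained regions was 16644 at a limit of 10 kb, 4877 at 100 kb, 1227 with genes of any type, 3333 among regions above the median total signal and 98 with OGG1 lists held to the shortest. Without 1 NT list it was 8514 to 11966.

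With lists held to the shortest list (6992 regions), H2O2 minus NT for SMARCA1 was -0.28 points, the log2 ratio difference 0.11, distal minus near-gene -0.14 points, OGG1 siOrc6 H2O2 overlap 1.09%, and 0 regions were in all H2O2 and no NT lists (1 the reverse) and 0 in all siOrc6 and no siGl3 lists. With equal covered bases, chosen after seeing the data, Orc6 gave -0.0948 points. With no NT OGG1 list used, also added, H2O2 minus NT over SMARCA1 and Orc6 was 12.1 points (p = 0.0463, exact) and the log2 ratio difference -0.14. Without the second OGG1 siOrc6 NT list this log2 difference was 0.0302 and distal minus near-gene 2.90 points; that was 1.64 beyond 100 kb and 1.13 in regions no wider than the median, all 3 past the threshold. By centre base, 10 regions were in all H2O2 and no NT lists (1 the reverse) and 0 in all siOrc6 and no siGl3 lists. The causes were not tested beyond these settings.

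Leaving out replicates or single libraries gave 4.83 to 11.1 points for SMARCA1 and Orc6, 7.44 to 11.7 for SMARCA1, -4.72 to 14.2 for Orc6, -5.60 to 1.07 for siOrc6 minus siGl3, 1.60 to 2.03 for the log2 ratio, 0.42 to 1.07 for distal minus near-gene, -17.7 to -15.5 for distal minus kept, 29 to 75 regions in all H2O2 and no NT lists, 1 to 4 in all siOrc6 and no siGl3 lists, and 43.1% to 65.6% for OGG1 siOrc6 H2O2. With 1 replicate number the exact permutation test of the log2 ratio cannot go below p = 0.25.

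With the replicate block, exact p was 0.0938 for SMARCA1 and Orc6 (7.98 points), 0.125 for SMARCA1 (9.59), 1 for Orc6 (4.75), 0.625 for the siRNA (-2.27) and 0.0312 for the log2 ratio (1.82), which changed no call. A block test of single regions was not run, since its sign test over pairs cannot pass. Unknown read depth and 2 libraries per group limit every comparison.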
